A study of Mus musculus with 8 samples.

Results

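The enzymes that polymerize and sulfate heparan sulfate are described here across sorted mouse kidney cells. They are 10 genes taken by symbol from the deposited count table (Ext1, Ext2, Ndst1, Ndst2, Glce, Hs2st1, Hs6st1, Hs3st1, Sulf1 and Sulf2), and all 10 stood among the 17326 gene lines that held a count for every library, of 22533 lines in all. The rule takes them by name and applies no threshold to a measured value, although it was written with earlier results of these data known. Polyadenylated RNA had been sequenced from cells of Mus musculus kidney sorted by flow cytometry, and the series describes these cells as glomerular endothelium and podocytes. The 4 groups of 2 libraries were endothelium from EMCN+/+ (wild-type) kidneys, endothelium from EMCN-/- (knockout) kidneys, podocytes from EMCN+/+ kidneys and podocytes from EMCN-/- kidneys. EMCN is endomucin, a sialomucin of the endothelial surface, and the study asked what its loss does to the glomerulus. The libraries of each group carry the numbers 2 and 3. Strain, age, the sorting markers and whether a library came from 1 animal or several are not given in the sources used here, so the p-values measure only the spread between these libraries, which may be technical.

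Heparan sulfate is a long, negatively charged sugar chain carried by core proteins such as the syndecans, glypicans, perlecan and agrin. In the Golgi, Ext1 and Ext2 together extend the chain from alternating glucuronic acid and N-acetylglucosamine, the N-deacetylase/N-sulfotransferases Ndst1 and Ndst2 replace acetyl by sulfate groups, Glce converts glucuronic to iduronic acid, and Hs2st1, Hs6st1 and Hs3st1 add sulfate at the 2-O, 6-O and 3-O positions. Outside the cell, the endosulfatases Sulf1 and Sulf2 take 6-O sulfate away again, which changes how the chain binds growth factors. In the glomerulus heparan sulfate lies in the endothelial surface layer and in the basement membrane that endothelium and podocytes share.

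The start-site regions of Ext2 and Hs2st1 are shown. These are the members called higher in podocytes over both genotypes among the entries used here from the RefSeq (GRCm38.p6) start-site table. Of the 10 members, 7 had entries in this set. There were 8 entries of 300 bases each, from 250 bases before to 50 bases after a start. Sulf1, Ndst1 and Ext1 had none in this set, and whether RefSeq gives regions for them was not established. Capitals mark GC boxes (GGGCGG or its reverse complement CCGCCC), which were searched with the core of ETS sites (CCGGAAG), the core shared by EGR and WT1 sites (GCGTGGG) and the TATA box (TATAAA), each on both strands. The Ext2 sequence is chr2:93822519-93822818 and the Hs2st1 sequence is chr3:144570167-144570466, both read on the minus strand.
Ext2: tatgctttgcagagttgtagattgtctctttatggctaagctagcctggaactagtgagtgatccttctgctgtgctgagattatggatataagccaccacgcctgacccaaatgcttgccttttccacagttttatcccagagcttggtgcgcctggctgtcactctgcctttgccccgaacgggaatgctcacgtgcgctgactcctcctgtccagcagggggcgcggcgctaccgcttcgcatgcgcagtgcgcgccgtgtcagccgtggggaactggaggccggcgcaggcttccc
Hs2st1: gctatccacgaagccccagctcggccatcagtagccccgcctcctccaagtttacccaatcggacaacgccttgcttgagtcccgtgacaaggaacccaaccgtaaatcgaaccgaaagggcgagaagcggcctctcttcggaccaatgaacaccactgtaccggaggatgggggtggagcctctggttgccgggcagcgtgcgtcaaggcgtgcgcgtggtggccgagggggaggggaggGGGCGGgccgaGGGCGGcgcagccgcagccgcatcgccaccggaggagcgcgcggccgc

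The Hs2st1 region held 2 GC boxes, 32 CpG dinucleotides and 67.7% G and C, while the Ext2 region held no match to any of the 4 motifs, 18 CpG dinucleotides and 58% G and C. GC boxes occurred in 35.7% of the 32851 regions of this length in the table, ETS cores in 8.86%, EGR and WT1 cores in 5.04% and TATA boxes in 13.6%. No ETS or EGR and WT1 core was found in any of the 8 entries of the members, and the 1 TATA box lay in 1 of the 2 entries of Sulf2. The Hs6st1 region carried the most CpG dinucleotides of the 8, at 47, a number reached by 1.44% of all regions, against a median of 7. The 2 regions shown therefore had no searched motif in common.

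Each library held 10478956 to 17386042 counts on the complete lines. Emcn, the targeted gene, stood at 1972.0 and 1828.3 CPM (counts per 1000000 counts of the library, after TMM scaling of library sizes) in wild-type endothelium and at 173.4 and 179.0 in knockout endothelium. In podocytes it stood at 74.1 and 35.9 CPM in wild type and at 5.59 and 4.94 in knockout, so all libraries followed their genotype labels. The summed level of 10 endothelial markers ran from 8862 to 11380 CPM in endothelium and from 502.5 to 752.4 in podocytes, and that of the 6 measured podocyte markers (of 10 listed) from 1092 to 2112 CPM in endothelium and from 7677 to 16640 in podocytes. Both sorts thus carried the markers of their label with a smaller amount of the other cell type's. Markers of other glomerular cells were present too. The sum of 7 mesangial and mural genes was 323.4 to 678.8 CPM in endothelium and 509 to 1296 in podocytes, with overlap, and that of 4 genes of parietal epithelium was 58.15 to 112 against 368.9 to 922.3 CPM, without overlap. The 7 measured tubule markers summed to 2472 to 12040 CPM, with the highest value in replicate 3 of wild-type endothelium, which also had the highest mitochondrial share of counts, at 26.2% where the other libraries had 10.1% to 22.2%. No listed marker that was measured was at 0 in every library, and the part of these other cells in the results below was not tested.

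Podocytes held more RNA of 5 of the 10 enzymes than endothelium did. Over both genotypes, with 4 libraries a side, Sulf1 was 5.50-fold higher in podocytes, Hs2st1 2.43-fold, Ndst1 1.80-fold, Ext2 1.72-fold and Ext1 1.59-fold, and 0 of the 10 were called higher in endothelium. The other 5 (Ndst2, Glce, Hs6st1, Hs3st1 and Sulf2) did not pass the threshold, an edgeR adjusted p under 0.05 over all genes. Of the 16477 genes tested, 18.3% were called in this comparison, 7.19% as higher in endothelium and 11.1% as higher in podocytes, so 5 of 10 is a larger share than the background. The median log2 fold change, endothelium minus podocytes, was −0.56 over the members and 0.00 over all genes tested. The 4 endothelium libraries did not overlap the 4 podocyte libraries for the same 5 members, where 21.9% of all genes tested showed no overlap. In bulk RNA, fewer cells of a type and less RNA per cell cannot be told apart.

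The calls depended on how libraries were scaled. With scaling by library size only, Sulf1 and Hs2st1 were the 2 members still called, and the share of called genes that were higher in podocytes moved from 60.8% to 45.1%, since that scaling shifts the median of all genes by 0.17 log2 units towards endothelium. All 5 members remained higher in podocytes under that scaling, by log2 fold changes from −2.24 for Sulf1 to −0.49 for Ext1.

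**Figure D1:**
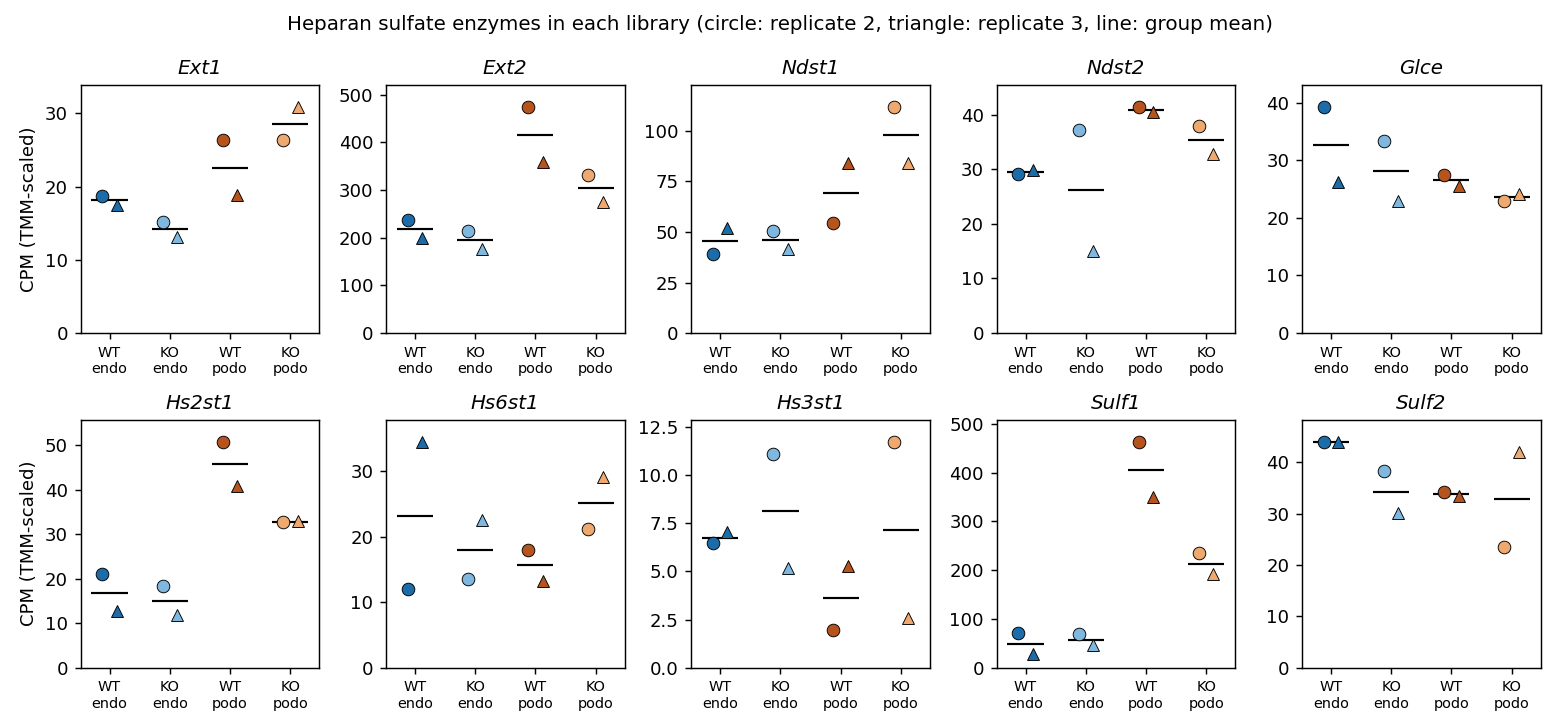
Level of each of the 10 enzymes in every library, in TMM-scaled CPM on a linear axis from 0, with 1 panel per gene, circles for replicate 2, triangles for replicate 3 and a line at the mean of the 2 libraries. Sulf1, Hs2st1, Ext2, Ndst1 and Ext1 sit higher in all 4 podocyte libraries than in all 4 endothelium libraries, while the libraries of Hs6st1, Hs3st1 and Glce overlap between the cell types.

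The chain polymerases Ext1 (Entrez 14042, chromosome 15, 53068261 to 53346183 in GRCm38.p6) and Ext2 (Entrez 14043, chromosome 2, 93695631 to 93822568) form a complex in which Ext1 carries most of the catalytic activity. Ext1 stood at 18.7 and 17.5 CPM in wild-type endothelium (replicates 2 and 3), 15.2 and 13.1 in knockout endothelium, 26.4 and 18.8 in wild-type podocytes and 26.3 and 30.8 in knockout podocytes. The lowest podocyte library thus lay just above the highest endothelium library. The log2 fold change over both genotypes was −0.67 (SE 0.20, 95% interval −1.10 to −0.23), with an edgeR adjusted p of 0.0392. This call was lost in 10 of 14 alternatives, among them leaving out any library but replicate 3 of wild-type podocytes (adjusted p from 0.0532 to 0.179). Ext2 stood at 236.5 and 199.6 CPM in wild-type endothelium, 213.5 and 176.5 in knockout endothelium, 473.0 and 359.4 in wild-type podocytes and 331.8 and 275.1 in knockout podocytes. Every podocyte library was above every endothelium library, and wild-type podocytes were the highest group. Between cell types the log2 fold change was −0.79 (SE 0.17, 95% interval −1.17 to −0.40), with an edgeR adjusted p of 0.00917. Without replicate 2 of wild-type podocytes it was −0.67 with an adjusted p of 0.0636. The RefSeq annotation places the predicted genes Gm13818 and Gm39883 across Ext2, and how reads in the overlap were counted is uncertain, as no source used here says whether strand was read.

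Ndst1 (Entrez 15531, chromosome 18, 60684494 to 60749035) and Ndst2 (Entrez 17423, chromosome 14, 20723730 to 20734570) start the modification of the chain, and the sulfation steps that follow act mostly where they have acted. Ndst1 stood at 39.0 and 52.0 CPM in wild-type endothelium, 50.6 and 41.7 in knockout endothelium, 54.6 and 84.1 in wild-type podocytes and 111.6 and 84.2 in knockout podocytes. The cell types did not overlap, with 1 podocyte library close to the endothelial range and knockout podocytes highest. Its fitted log2 fold change was −0.85 (SE 0.20, 95% interval −1.28 to −0.41), with an edgeR adjusted p of 0.0128. It missed the threshold without replicate 2 of wild-type endothelium (−0.75, adjusted p 0.0514) and without replicate 3 of wild-type podocytes (−0.68, adjusted p 0.0574). Ndst2 stood at 29.2 and 29.8 CPM in wild-type endothelium, 37.2 and 15.0 in knockout endothelium, 41.3 and 40.4 in wild-type podocytes and 37.9 and 32.7 in knockout podocytes. Its podocyte and wild-type endothelium values were close between replicates, whereas the knockout endothelium libraries spanned the whole range of the cell type. The log2 fold change of −0.45 (95% interval −1.02 to 0.11) did not pass (edgeR adjusted p 0.271), and without replicate 2 of knockout endothelium it was −0.86 with an adjusted p of 0.0178.

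Glce, Hs2st1, Hs6st1 and Hs3st1 shape the chain after N-sulfation, and of these Hs2st1 alone was called between cell types. Hs2st1 (Entrez 23908, chromosome 3, 144429701 to 144570216) adds sulfate to the iduronic acid that Glce makes. It stood at 21.0 and 12.8 CPM in wild-type endothelium, 18.3 and 11.8 in knockout endothelium, 50.7 and 40.9 in wild-type podocytes and 32.7 and 32.9 in knockout podocytes. All podocyte libraries were clearly above all endothelium libraries. Its fitted log2 fold change was −1.28 (SE 0.23, 95% interval −1.78 to −0.78), with an edgeR adjusted p of 0.00238, and it passed in all 14 alternatives, at adjusted p-values from 1.38e-05 to 0.026. Hs2st1 overlaps the predicted genes Gm43560, Gm43707 and Gm46829, so its count is uncertain there for the same reason as that of Ext2. Glce (Entrez 93683, chromosome 9, 62057244 to 62122609), the epimerase that supplies the substrate of Hs2st1, stood at 39.2 and 26.2 CPM in wild-type endothelium, 33.4 and 23.0 in knockout endothelium, 27.5 and 25.6 in wild-type podocytes and 23.0 and 24.2 in knockout podocytes. The 2 cell types overlapped, with the upper values in replicate 2 of each endothelium group, and the log2 fold change of 0.28 (95% interval −0.17 to 0.73) did not pass (edgeR adjusted p 0.41).

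Hs6st1 (Entrez 50785, chromosome 1, 36068400 to 36106446), the 6-O-sulfotransferase whose product the Sulf enzymes remove, stood at 12 and 34.4 CPM in wild-type endothelium, 13.5 and 22.5 in knockout endothelium, 18.0 and 13.2 in wild-type podocytes and 21.2 and 29.1 in knockout podocytes. The spread within groups exceeded the difference between cell types, and the log2 fold change of 0.04 had a 95% interval from −0.68 to 0.76 (edgeR adjusted p 0.954). The highest value came from replicate 3 of wild-type endothelium, the library with the highest tubule marker sum (12040 CPM, against 4360 in replicate 2), and the part of tubule RNA in it was not tested. Without this library the difference between cell types was −0.44. Hs3st1 (Entrez 15476, chromosome 5, 39613935 to 39645592), which makes the rare 3-O-sulfated site that binds antithrombin, was the member with the fewest reads, at 30 to 188 counts per library. It stood at 6.46 and 7.02 CPM in wild-type endothelium, 11.1 and 5.16 in knockout endothelium, 1.94 and 5.3 in wild-type podocytes and 11.7 and 2.58 in knockout podocytes. The 2 knockout podocyte libraries held the highest and the second lowest value of all 8, and the higher of them also had the highest sum of parietal epithelium markers, at 922.3 CPM against 368.9 in the other. The log2 fold change between cell types was 0.55 (95% interval −0.56 to 1.65, edgeR adjusted p 0.525), so neither a 2-fold higher level in endothelium nor an equal level lay outside the interval. Without replicate 2 of knockout podocytes it was 1.27, and without replicate 3 it was 0.19.

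The endosulfatases parted between the cell types. Sulf1 (Entrez 240725, chromosome 1, 12692197 to 12861192) stood at 71.6 and 27.6 CPM in wild-type endothelium, 68.4 and 47.1 in knockout endothelium, 462.0 and 349.0 in wild-type podocytes and 234.5 and 191.9 in knockout podocytes. The lowest podocyte library exceeded the highest endothelium library by a wide margin. The log2 fold change over both genotypes was −2.46 (SE 0.29, 95% interval −3.10 to −1.82), with an edgeR adjusted p of 0.000157, and it passed in all 14 alternatives. Podocyte markers were present in the endothelium libraries at sums of 1092 to 2112 CPM against 7677 to 16640 in podocytes, and replicate 2 of wild-type endothelium had both the highest such sum and the highest Sulf1 level of the 4. The part of podocyte RNA in the endothelial Sulf1 level was not tested. Sulf2 (Entrez 72043, chromosome 2, 166073899 to 166155683) stood at 43.9 and 43.9 CPM in wild-type endothelium, 38.3 and 30.2 in knockout endothelium, 34.3 and 33.4 in wild-type podocytes and 23.6 and 42.0 in knockout podocytes. Its levels overlapped between cell types, and the log2 fold change of 0.22 (95% interval −0.23 to 0.67, edgeR adjusted p 0.535) had an interval that did not meet that of Sulf1. Sulf2 overlaps the predicted gene Gm52534.

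Sulf1 had the lowest adjusted p of the members within each genotype as well. In wild type, 3 of 10 were called, all higher in podocytes: Sulf1 (log2 fold change −3.03, SE 0.42, edgeR adjusted p 0.000991), Hs2st1 (−1.44, SE 0.32, adjusted p 0.0163) and Ext2 (−0.93, SE 0.25, adjusted p 0.0389). The background was 8.99% of genes called, 4.26% as higher in endothelium and 4.73% as higher in podocytes. In knockout, 4 of 10 were called, again all higher in podocytes: Sulf1 (−1.88, SE 0.40, edgeR adjusted p 0.0131), Ndst1 (−1.09, SE 0.28, adjusted p 0.0335), Ext1 (−1.01, SE 0.28, adjusted p 0.0449) and Hs2st1 (−1.12, SE 0.32, adjusted p 0.0493). There 10.4% of genes were called, 4.28% as higher in endothelium and 6.09% as higher in podocytes. Of these calls only Sulf1 in wild type passed in every alternative, 1 to 3 members passed in wild type and 0 to 3 in knockout when 1 library was left out, and with library-size scaling 1 passed in wild type and 0 in knockout. In wild type, Ext2 was lost without any 1 of the 4 wild-type libraries (adjusted p up to 0.352), and Hs2st1 without replicate 3 of endothelium or replicate 2 of podocytes (0.146 each). In knockout, Sulf1 was lost without replicate 3 of knockout endothelium (0.0861) or replicate 2 of knockout podocytes (0.0533), and Ndst1 without either of these or replicate 2 of knockout endothelium (up to 0.184). Hs2st1 was lost without any podocyte or knockout endothelium library (up to 0.273) and Ext1 without any 1 of the 8 (up to 0.233). The members called in 1 genotype and not in the other were not shown to differ between genotypes, since the test of that difference (the interaction term given with the genotype effects) called none.

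**Figure D2:**
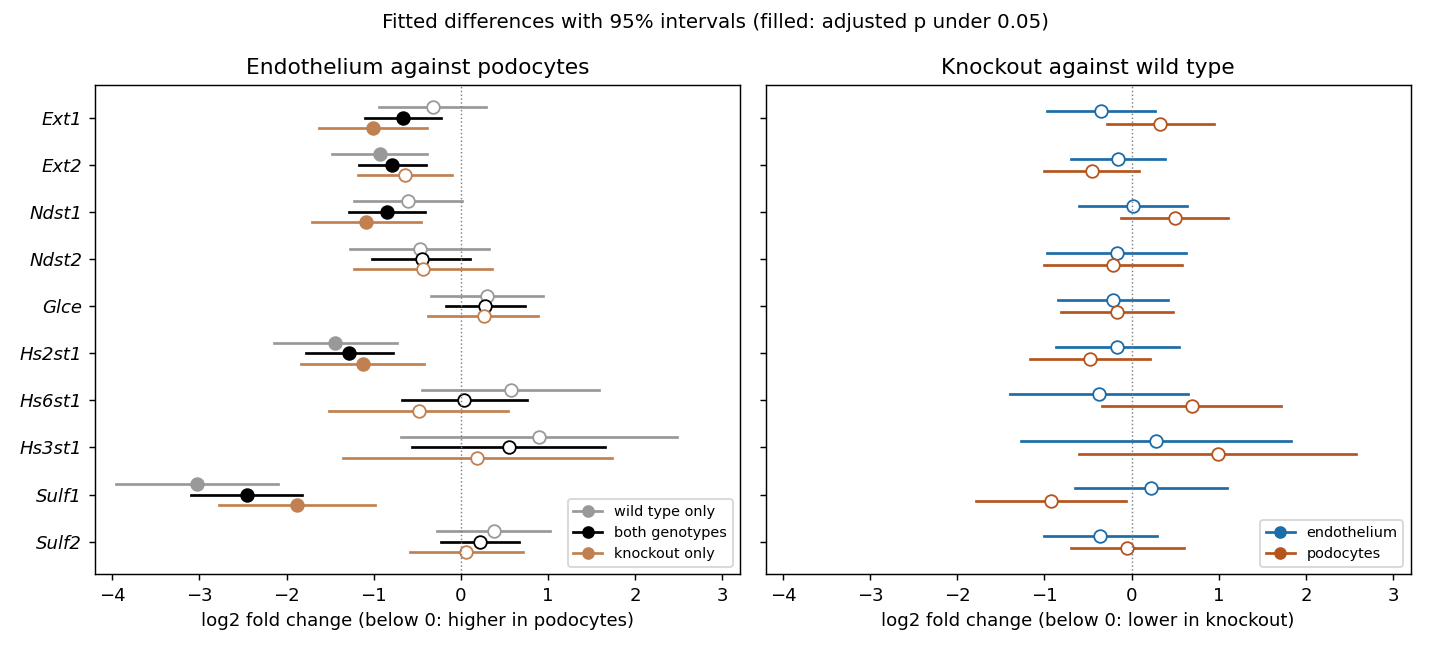
Fitted log2 fold changes of the 10 enzymes with 95% intervals, for endothelium against podocytes on the left and for knockout against wild type on the right, with filled points where the edgeR adjusted p was under 0.05. On the left the points of Sulf1, Hs2st1, Ndst1, Ext2 and Ext1 over both genotypes are filled and lie below 0, and on the right no point is filled.

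Levels of different enzymes were compared per kilobase of the longest protein-coding transcript in GENCODE M21. In wild-type endothelium Ext2 was highest, at 75.94 ± 9.08 CPM per kilobase (SD, n = 2), followed by Sulf2 at 9.583 ± 0.00908 (SD, n = 2) and Sulf1 at 8.856 ± 5.56 (SD, n = 2). Below Sulf1 came Ndst2, Ndst1, Glce, Hs6st1 and Hs3st1, and from Sulf2 to Hs6st1 each enzyme overlapped the next one in its 2 libraries. Hs2st1, at 2.735 ± 0.934 (SD, n = 2), and Ext1, at 2.362 ± 0.109 (SD, n = 2), were lowest and also overlapped each other. In wild-type podocytes Ext2 (145 ± 28, SD, n = 2) and Sulf1 (72.44 ± 14.3, SD, n = 2) stood apart from each other and from the rest. Ndst1 and Ndst2 followed, at 10.7 and 10.47 CPM per kilobase, then Hs2st1 and Sulf2, at 7.411 and 7.388, and neither pair could be separated. Glce, Hs6st1, Ext1 and Hs3st1 closed the order at 5.475, 4.199, 2.952 and 2.148 CPM per kilobase, and of these only Ext1 and Hs3st1 overlapped. In wild type Sulf1 thus stood in the middle group of enzymes in endothelium and second in podocytes, and Hs2st1 moved from the second lowest place to the fifth. In knockout Sulf1 was second in both cell types, at 10.31 ± 2.7 CPM per kilobase in endothelium (SD, n = 2), where its libraries overlapped those of Ndst2, and at 38.08 ± 5.38 in podocytes (SD, n = 2). The order below Ext2 depended on the length used. With the median transcript length in place of the longest, Ext2 remained first in both wild-type groups and Sulf1 second in wild-type podocytes, while Ndst1 took the second place in both endothelium groups, with overlap with Sulf1 in each. In wild-type podocytes that length put Ndst1 at 22.76 and Ndst2 at 11.74 CPM per kilobase, and Sulf2 at 8.886 and Hs2st1 at 7.411, so that neither pair overlapped and Hs2st1 was sixth.

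Ratios within a library do not depend on scaling between libraries and give the balance between enzymes of paired roles. They do depend on the transcript length used for each gene, here again the longest. Per kilobase, Sulf1 exceeded Sulf2 by 11-fold and 8.55-fold in wild-type podocytes and by 8.13-fold and 3.74-fold in knockout podocytes. In endothelium the log2 ratio of Sulf1 to Sulf2 was 0.42 and −0.96 in wild type and 0.55 and 0.35 in knockout, so all 4 podocyte libraries, at 1.90 to 3.46, lay above all 4 endothelium libraries. Ext2 exceeded Ext1 by 23.8-fold to 51-fold in the podocyte libraries and by 30.4-fold to 37.4-fold in the endothelium libraries, and the ranges overlapped. With the median transcript length, a check of these ratios added after seeing the data, the folds were 85.5 to 183 and 109 to 134, since that length is much shorter for Ext2, so the size of the gap is uncertain. The log2 ratio of Ndst1 to Ndst2 ran from −0.31 to 0.75 in endothelium and from −0.33 to 0.83 in podocytes, again with overlap. With the median length it ran from 0.61 to 1.67 and from 0.59 to 1.75, above 0 in all 8 libraries, so which of these enzymes had the higher level depended on the length. That of Hs6st1 to Hs2st1 was −0.07 and 2.16 in wild-type endothelium, 0.29 and 1.67 in knockout endothelium, −0.76 and −0.90 in wild-type podocytes and 0.10 and 0.56 in knockout podocytes. In wild type the 2 cell types did not overlap for this ratio and in knockout they did. These ratios are descriptions with no test.

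**Figure D3:**
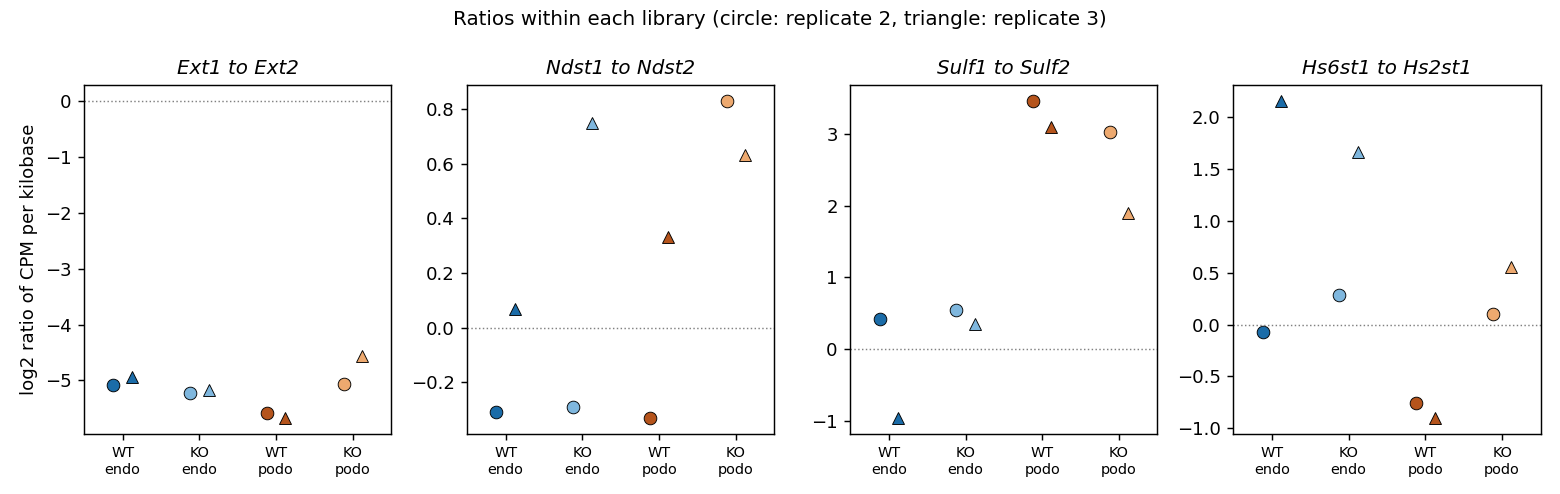
Log2 ratio of CPM per kilobase of the longest transcript between 4 pairs of enzymes within each library, 1 panel per pair, with circles for replicate 2, triangles for replicate 3 and a dotted line at equal levels. The Sulf1 to Sulf2 ratio is 1.90 to 3.46 in podocytes and −0.96 to 0.55 in endothelium, whereas the ratios of Ext1 to Ext2 and of Ndst1 to Ndst2 overlap between the cell types.

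Loss of Emcn went with no called change in any of the 10 enzymes. In knockout against wild-type endothelium 0 of 10 passed, with 0 at an unadjusted p under 0.05 and 0 called by DESeq2, where 0.00607% of all genes passed, which is Emcn itself (log2 fold change −3.43, SE 0.35, edgeR adjusted p 0.0205), and 905 of 16477 genes had an unadjusted p under 0.05. Without any 1 of the 4 endothelium libraries the Emcn call was lost too (adjusted p from 0.0838 to 0.191), at log2 fold changes from −3.49 to −3.38, as it was with library-size scaling (−3.11, adjusted p 0.0835). The members' median log2 fold change was −0.17, against 0.01 over all genes tested, with 3 of 10 positive and 7 negative, and with library-size scaling the medians were 0.15 and 0.33. The fitted changes ran from −0.37 for Hs6st1 (95% interval −1.39 to 0.65) to 0.28 for Hs3st1 (−1.27 to 1.83). Ext2 had the narrowest interval, −0.70 to 0.38, which leaves out a 2-fold change in either direction. Those of Ext1, Ndst1, Ndst2, Hs2st1 and Glce also lay within −1 and 1, with Sulf2 at −1.0 to 0.29. The Ndst2 value was −0.99 without replicate 2 of knockout endothelium, outside its own interval of −0.97 to 0.62. The intervals of Hs6st1, Hs3st1 and Sulf1 (−0.65 to 1.09) did not leave a 2-fold change out. Knockout and wild-type libraries did not overlap for 2 of 10 members, Ext1 and Sulf2, both lower in knockout, where 44.5% of all genes showed no overlap. The dissociation response genes (18 of 20 listed measured) summed to 42980 to 50020 CPM in wild-type and 26600 to 35370 in knockout endothelium, and their part in these values was not tested.

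In knockout against wild-type podocytes 0 of 10 passed, with 1 at an unadjusted p under 0.05 and 0 called by DESeq2, where again 0.00607% of all genes passed, Emcn alone (−3.38, SE 0.36, edgeR adjusted p 0.0321), and 730 genes had an unadjusted p under 0.05. Here Emcn was lost without either wild-type endothelium library, replicate 2 of wild-type podocytes or either knockout podocyte library (adjusted p from 0.0638 to 0.558, log2 fold changes from −3.48 to −2.74), with library-size scaling (−3.26, adjusted p 0.0786) and with only the podocyte libraries in the model (−3.37, adjusted p 0.194). The member under that unadjusted p was Sulf1, with a mean of 405.5 ± 79.9 CPM in the 2 wild-type libraries and of 213.2 ± 30.1 CPM in the 2 knockout libraries (± SD), a log2 fold change of −0.93 (SE 0.39, 95% interval −1.79 to −0.06, unadjusted p 0.0379, edgeR adjusted p 0.978). The 2 genotypes did not overlap, with knockout lower, and over the alternatives the value ran from −1.12 to −0.69. The podocyte markers were also lower in the knockout libraries, with sums of 16640 and 10590 CPM in wild type and 7677 and 9548 in knockout. The summed dissociation response genes were lower too, at 47000 and 38580 CPM in wild type and 36740 and 32930 in knockout. Single genes of that list did not all follow the sum. Egr1, for instance, stood at 3260 and 2520 CPM in wild type and at 4180 and 1760 in knockout. The part of either list in the Sulf1 value was not tested. The members' median log2 fold change was −0.11, against 0.02 over all genes, with 4 of 10 positive and 6 negative, and with library-size scaling the medians were 0.00 and 0.13. Knockout and wild-type podocytes did not overlap for 7 of 10 members, 2 higher in knockout (Ndst1 and Hs6st1) and 5 lower (Ext2, Ndst2, Glce, Hs2st1 and Sulf1), where 31.2% of all genes showed no overlap. The fitted changes of the other 6 were 0.50 for Ndst1, 0.69 for Hs6st1, −0.46 for Ext2, −0.48 for Hs2st1, −0.21 for Ndst2 and −0.17 for Glce, each with a 95% interval that includes 0. Hs3st1 had the widest interval, −0.60 to 2.57 around 0.99, and its value turned to −0.49 without replicate 2 of knockout podocytes.

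The 2 genotype effects were compared in the interaction term, the change in endothelium minus the change in podocytes, which also tests whether the difference between cell types depends on genotype. It called 0 of 10 members, with 0 at an unadjusted p under 0.05 and 0 by DESeq2, and 0% of all genes (428 of 16477 had an unadjusted p under 0.05). Sulf1 had the smallest p of the members, with a term of 1.15 (SE 0.55, 95% interval −0.08 to 2.37, unadjusted p 0.0632, edgeR adjusted p 1). Over the alternatives the Sulf1 term ran from 0.61 to 1.99, with both ends set by leaving out a library of wild-type endothelium (replicate 3 and replicate 2). Hs6st1 had a term of −1.05 (95% interval −2.50 to 0.39), which was −0.11 without replicate 3 of wild-type endothelium and −1.63 without replicate 2. Ext1 had one of −0.69 (−1.56 to 0.18). The genotype comparisons share their libraries with the comparisons between cell types, so their values are not independent.

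Other genes of heparan sulfate metabolism were read from lists grouped by step. Of 51 listed genes, 38 stood on complete lines and were tested. Between cell types over both genotypes, 19 of the 38 were called as higher in podocytes (background 11.1%) and 2 as higher in endothelium (background 7.19%), with a median log2 fold change of −0.84 against 0.00 over all genes. The podocyte count was 11 with library-size scaling and 12 without replicate 2 of wild-type podocytes, each time with 2 called in endothelium. Of 3 tested genes that build or trim the linker between protein and chain, Pxylp1, the phosphatase that acts on the xylose of that linker, was the 1 called (−1.35, SE 0.31, edgeR adjusted p 0.0118, and 0.0532 with library-size scaling). All 3 tested genes of the Extl family were called as higher in podocytes, where 11.1% of all genes were. Extl3, which adds the first N-acetylglucosamine of a heparan sulfate chain, had a log2 fold change of −1.32 (SE 0.16, edgeR adjusted p 0.00018), and Extl1 and Extl2 had −1.31 and −1.0 (adjusted p 0.00494 and 0.00276). All 3 passed in each of 14 alternatives.

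Of 8 other tested N-deacetylases and sulfotransferases 4 were called, all higher in podocytes. Hs3st3a1, a 3-O-sulfotransferase, had group means of 13.48 CPM in wild-type endothelium, 9.741 in knockout endothelium, 122.5 in wild-type podocytes and 75.91 in knockout podocytes (log2 fold change −3.07, SE 0.24, edgeR adjusted p 9.95e-06). Hs3st6, of the same family, had means of 15.17, 15.55, 142.5 and 104.8 CPM in the same order (−2.99, SE 0.27, edgeR adjusted p 2.43e-05). Both were thus higher in podocytes in each genotype, whereas Hs3st1 was below 12 CPM in every library and not called. Hs6st2 (−1.67, adjusted p 0.0258) and Hs3st3b1 (−0.92, adjusted p 0.0103) were the other two, and both were lost with library-size scaling. Hs6st2 was also lost without replicate 2 or 3 of knockout endothelium, replicate 3 of wild-type podocytes or replicate 2 of knockout podocytes, and Hs3st3b1 without replicate 2 of wild-type podocytes. Hs3st3a1 and Hs3st3b1 share a nearly identical catalytic domain, so the split of reads between them is uncertain. None of the 3 tested precursor genes, which make or activate the sulfate and sugar donors, was called by edgeR, and 1 had an unadjusted p under 0.05. DESeq2 called 1 of the 3, as higher in podocytes.

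Among the breakdown genes, the lysosomal enzymes Hgsnat (−0.87, edgeR adjusted p 0.00976), Arsg (−0.84, 0.0387) and Naglu (−0.48, 0.0419) were called as higher in podocytes. Of 14 alternatives, Hgsnat was lost in 2 (library-size scaling, and without replicate 2 of wild-type podocytes), Arsg in 7 and Naglu in 11. Naglu was lost without any library but replicate 3 of knockout podocytes, and Arsg without any but replicate 3 of wild-type or replicate 2 of knockout podocytes. The heparanase Hpse, which cleaves chains in the matrix, had a log2 fold change of 0.99 (SE 0.39) that did not pass (edgeR adjusted p 0.115). Core proteins were called in both directions, 7 of 13 higher in podocytes and 2 higher in endothelium. The glypican Gpc1 (−3.22, SE 0.22, edgeR adjusted p 5.13e-06), the syndecans Sdc2 (−2.39) and Sdc4 (−2.03) and the basement membrane protein agrin (Agrn, −1.67) led on the podocyte side, with Gpc4, Gpc3 and Sdc1 between −1.13 and −0.94. These last 3 were each lost without replicate 2 of wild-type podocytes. Gpc4 was also lost without replicate 2 of either endothelium group, and Sdc1 without replicate 2 of wild-type endothelium, replicate 3 of knockout endothelium or replicate 2 of knockout podocytes. With library-size scaling Gpc3 (adjusted p 0.0511) and Sdc1 (0.0898) were lost as well. On the endothelial side stood Hspg2, which encodes perlecan (1.59, SE 0.19, adjusted p 0.000162), and Srgn, which encodes the granule proteoglycan serglycin (4.38, SE 0.33, adjusted p 8.15e-06).

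Chondroitin sulfate is built on the same linker, and its 10 listed genes were all tested. Of these, 4 were called as higher in endothelium and 3 as higher in podocytes, where 7.19% and 11.1% of all genes were called, with a median log2 fold change of 0.16 against 0.00 over all genes. With library-size scaling 4 and 2 were called. Csgalnact1, which starts a chondroitin chain where Extl3 would start a heparan sulfate chain, had means of 102.5 CPM in wild-type endothelium, 112.8 in knockout endothelium, 11.83 in wild-type podocytes and 10.21 in knockout podocytes (log2 fold change 3.29, SE 0.23, edgeR adjusted p 5.59e-06). The chondroitin sulfotransferases Chst12 (1.73, adjusted p 0.000351), Chst15 (1.54, 0.00496) and Chst11 (1.53, 0.0194) were also higher in endothelium. Dse, which makes dermatan sulfate (−1.72, 0.000475), Chpf (−1.48, 0.00136) and Csgalnact2 (−1.02, 0.0451) were higher in podocytes. Csgalnact2 was lost in 7 of 14 alternatives, among them leaving out replicate 3 of either endothelium group, either replicate of wild-type podocytes or replicate 2 of knockout podocytes. Chst11 was lost without replicate 3 of knockout endothelium or replicate 2 of knockout podocytes. The members of this list did not share 1 direction.

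**Figure D4:**
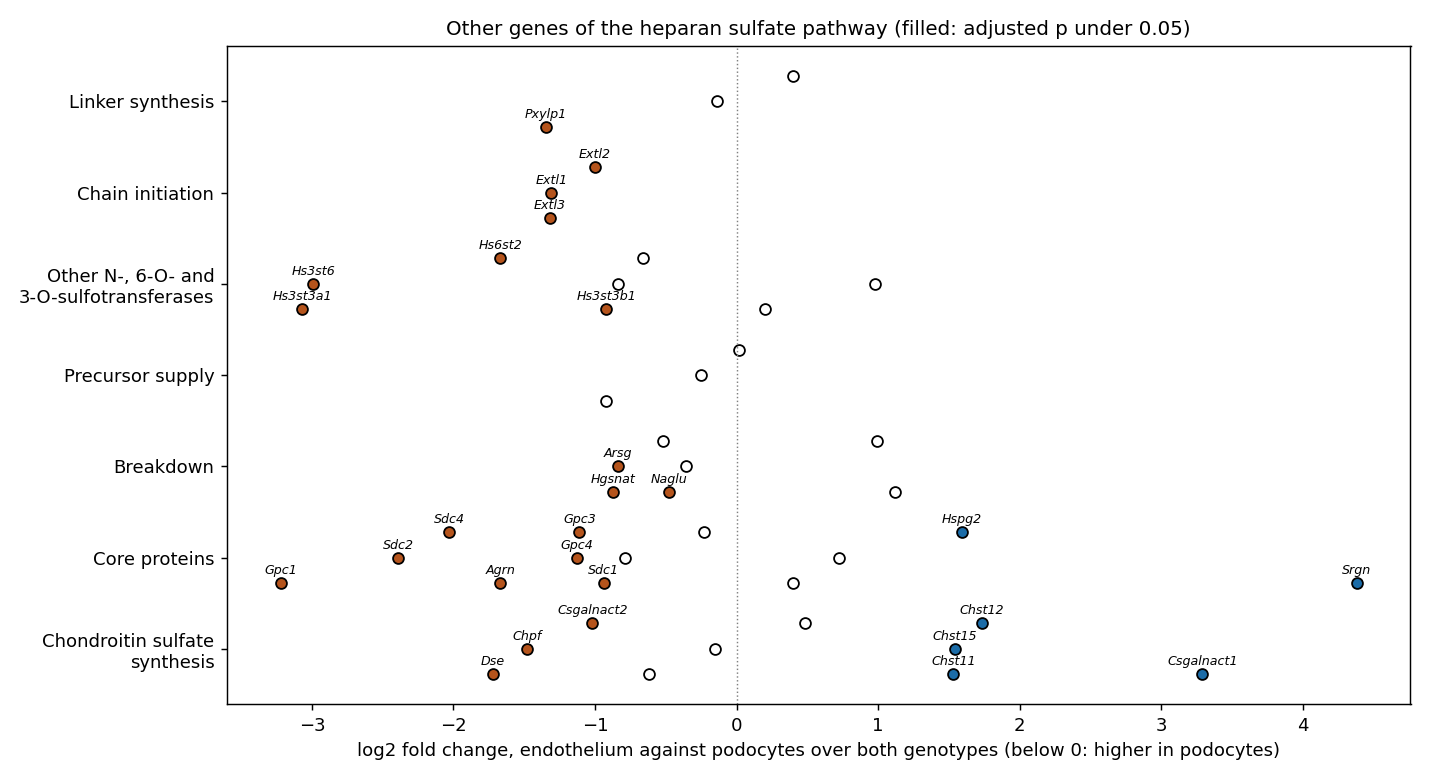
Fitted log2 fold changes of the other listed genes, endothelium against podocytes over both genotypes, grouped by step on the vertical axis, with filled and named points where the edgeR adjusted p was under 0.05. The called genes of heparan sulfate metabolism drawn here lie below 0 (higher in podocytes) except Hspg2 and Srgn, and 1 listed gene is not drawn, while the chondroitin genes have 3 below and 4 above.

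By genotype, none of the 48 tested genes on these lists, chondroitin included, was called in endothelium, in podocytes or in the interaction term by edgeR, with 9, 4 and 0 at an unadjusted p under 0.05. In endothelium the smallest p-values belonged to Ndst3, a further N-deacetylase/N-sulfotransferase (group means 3.389 CPM in wild type and 8.302 in knockout, log2 fold change 1.29, SE 0.47, unadjusted p 0.0204, edgeR adjusted p 0.716), and to the xylosyltransferase Xylt1, which starts the linker (1.715 and 4.751 CPM, 1.47, SE 0.55, unadjusted p 0.0223, adjusted p 0.716). In podocytes they belonged to Dse (109.9 CPM in wild type and 56.45 in knockout, −0.96, SE 0.33, unadjusted p 0.0143, edgeR adjusted p 0.978) and to Papss2, which makes the sulfate donor (40.81 and 93.62 CPM, 1.2, SE 0.50, unadjusted p 0.0367, adjusted p 0.978). The Papss2 value ran from 0.12 to 1.92 over its alternatives.

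The genes whose log2 CPM followed a member most closely over the 8 libraries were listed for the 4 members of smallest p between cell types, among 10080 genes with a mean of at least 5 CPM. Sulf1 was followed most closely by Sgip1, Mertk and Luzp2 (Pearson r 0.996, 0.994 and 0.994), and Hs2st1 by Qsox2, Cxcl12 and Tyro3 (0.996, 0.993 and 0.992). Ext2 was followed by Pttg1ip, Btrc and Fkbp9 (0.997, 0.996 and 0.994), and Ndst1 by genes that include Cib2 and Enpp2 (0.991 and 0.983). Each gene named here had a higher mean in podocytes than in endothelium, for instance Mertk at 110.2 and 478.5 CPM and Tyro3 at 6.746 and 45.45 CPM in endothelium and podocytes. The 8 points share the step between cell types and the same library scaling, so these correlations are descriptions.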

How the data were processed

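RNA was measured in 8 libraries, 2 for each of 4 groups. The authors deposited counts per gene in 1 table, taken as raw counts because every value is a whole number. DESeq2 and mm10 are named, without a role, per the submitters' processing notes; the aligner, counter, annotation and use of strand are not given in the sources used here. Of 22533 gene lines, 5207 ended before the last library, so the 3 columns affected hold blanks in the deposited file, and only the 17326 complete lines were used, in every library, for totals and tests. Of these, 617 had no symbol.

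Library sizes were scaled by TMM, filterByExpr kept 16477 genes, and edgeR 4.0.16 (R 4.3.3) fitted 1 quasi-likelihood model to all 8 libraries. P-values were adjusted by Benjamini-Hochberg over every gene tested (threshold 0.05) in each of 6 comparisons (cell type in both, 1 or the other genotype, genotype in each cell type, and their interaction). Each standard error came from dividing the log2 fold change by √F, and log2 CPM used a prior count of 2. The fit was tested on simulated data for endothelium against podocytes over both genotypes. It recovered 53.8% of 2-fold changes and 100% of 4-fold changes. No change between genotypes was simulated. Alternatives were DESeq2 1.42.0, its size factors, library size only, no filter, the compared libraries only, each library left out, and a replicate block. A block with podocyte numbers swapped was chosen after seeing the data.

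Replicate numbers are shared between groups, but no label says that they mark an animal or day. Named genes were all members, listed pathway genes passing in any comparison (otherwise the 2 of smallest p by genotype), Emcn, and the 3 closest patterns of 4 members. Hpse, outside this rule, was named after its value was seen. Of the genes this rule names, 2 are not reported here, though counts over lists and all genes include them. The members and lists were chosen with earlier results of these data known. RefSeq (GRCm38.p6) gave coordinates, and 16425 complete lines matched it.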

Additional observations from a re-analysis of the deposited data

How the results depend on the processing

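Hs2st1 and Sulf1 passed over both genotypes in all 14 alternatives. No member passed by genotype or in the interaction in any, which says little about stability, since Emcn itself missed the threshold in endothelium in 4 of the 8 fits with 1 library left out and in podocytes in 5 of 8. Over both genotypes 5 members were called, against 2 with library size only and 3 to 5 with 1 library left out. In wild type 3 were called, against 1 with library size only and 1 to 3 with 1 library left out. In knockout 4 were called, against 0 with library size only, 1 with only the libraries compared and 0 to 3 with 1 library left out. Over all genes, 769 to 1672 passed in wild type and 960 to 1809 in knockout with 1 library left out, against 1481 and 1709. By genotype DESeq2 called 4 genes in endothelium and 8 in podocytes, where edgeR called 1 in each and 0 with library size only. Hs3st1 had the fewest counts, at 30 to 188 per library.

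The replicate numbers pair the samples only by number: correlations of deviations were 0.19 (endothelium) and 0.16 (podocytes) between genotypes, and −0.13 (wild type) and 0.11 (knockout) between cell types. With the replicate block 3435, 1831 and 2241 genes passed between cell types (both genotypes, wild type, knockout) and 5, 3 and 5 members. With podocyte numbers swapped, 2912, 1357 and 1578 genes and 4, 2 and 1 members passed. Under the block the Hs6st1 value over both genotypes turned from 0.04 to −0.06 (also −0.06 when swapped), and the Ndst2 interaction from 0.04 to −0.03.

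Signs of uncalled results turned in places, and the cause was not tested. With library size only, the genotype effect in endothelium became 0.16 for Ext2, 0.10 for Glce, 0.14 for Hs2st1, 0.02 for Hs6st1 and 0.20 for Ndst2, that in podocytes 0.06 for Sulf2, and the Glce interaction 0.16. With DESeq2, whether by its test or its size factors, the Ndst1 effect in endothelium was −0.04 and the Ndst2 interaction −0.01. With 1 library left out, the genotype effect in endothelium ran from −0.52 to 0.10 for Glce, −0.52 to 0.22 for Hs2st1, −0.39 to 0.72 for Hs3st1, −0.94 to 0.57 for Hs6st1, −0.18 to 0.24 for Ndst1, −0.99 to 0.33 for Ndst2 and −0.32 to 1.06 for Sulf1. That in podocytes ran from −0.49 to 1.87 for Hs3st1 and −0.52 to 0.31 for Sulf2. The interaction ran from −0.35 to 0.27 for Glce, −0.04 to 0.70 for Hs2st1, −1.60 to 0.75 for Hs3st1, −0.77 to 0.54 for Ndst2 and −0.67 to 0.15 for Sulf2. Between cell types, the wild-type value ran from −0.02 to 0.56 for Glce and −0.38 to 1.14 for Hs6st1. The knockout value ran from −0.04 to 0.49 for Glce, −0.52 to 1.65 for Hs3st1, −1.24 to 0.07 for Ndst2 and −0.30 to 0.53 for Sulf2, and the Hs6st1 value over both genotypes from −0.44 to 0.32.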
